A study of Homo sapiens with 18 samples.

Results

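The cytochrome P450 (CYP) and UDP-glucuronosyltransferase (UGT) genes of 3 human lung cancer cell lines were examined before and after epithelial-mesenchymal transition (EMT). Members were the rows of the expression table whose symbol was a numbered CYP gene or a UGT gene of families 1 to 3, and this gave 61 of 19849 genes, 54 CYP and 7 UGT. The rule used symbols and no measured values, though it was chosen with earlier results of these data known. P450 genes with another kind of symbol, such as TBXAS1 and PTGIS, fell outside it, and UGT1A6 and UGT2B7 were not analysed here. Each member was read by 1 probe set, and the gene IDs of 61 of the 61 members were found in RefSeq.

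RNA from A549, HCC827 and NCI-H358, established lines of human non-small cell lung cancer, was hybridised to 18 Affymetrix U133 Plus 2.0 arrays. The 6 groups, with 3 arrays each, were A549 Parental, A549 EMT, HCC827 Parental, HCC827 EMT, NCI-H358 Parental and NCI-H358 EMT. Parental cells were untreated, and EMT cells, called mesenchymal cells here, had grown with 2 ng/ml TGFβ for 3 weeks by the labels, with TGFβ withdrawn the day before lysis. The growth medium, with serum and glutamine, was shared by the 6 groups. Long exposure to TGFβ, its withdrawal and the state of the cells go together in the EMT groups and cannot be told apart. The study's methods give a wider range of treatment times that differs between the lines.

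P450 enzymes are haem proteins that insert an oxygen atom into their substrates, with electrons delivered by a reductase or by cytochrome b5. Some clear drugs and smoke constituents, and others make or break down hormones, vitamins, sterols and fatty acid mediators. UGT enzymes join glucuronic acid to such compounds so that they can be excreted. Many of both kinds are best known from the liver, while CYP1A1, CYP1B1, CYP2F1, CYP2A13, CYP2S1 and CYP4B1 are also known from the airway.

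Array medians over all genes lay between 6.31 and 6.47 on the log2 scale. The standard deviation of the difference between 2 arrays of the same group was 0.163 to 0.282 over all genes and 0.183 to 0.337 over the members. Of 5 epithelial markers CDH1, EPCAM and KRT19 fell in each line, and KRT8 and KRT18 fell in HCC827 and NCI-H358 and differed by -0.54 and -0.34 in A549. Of 5 mesenchymal markers CDH2 and FN1 rose in each line, ZEB1 and VIM rose in HCC827 and NCI-H358 and differed by 0.79 each in A549, and SNAI1 differed by 0.52, 0.85 and 0.92, under 2-fold. PTPRC, CDH5 and ALB, which mark leukocytes, endothelium and hepatocytes, had group means of 2.83 to 3.18, 3.97 to 4.29 and 3.04 to 3.69, near the low end of the scale in all groups. The other markers of these 3 cell types were higher, CD3E at 5.39 to 5.61, CD14 at 4.4 to 5.76, PECAM1 at 4.66 to 5.31, VWF at 5.01 to 5.32, APOA1 at 4.4 to 4.75 and TTR at 6.36 to 6.78. CD14 fell by 1.36 in A549, and its part in the results below was not tested. Members were compared between groups with limma, and a member is said to have risen or fallen where the Benjamini-Hochberg adjusted p was below 0.05 and the fold change above 2. The study's own thresholds, a fold change above 5 at an adjusted p under 1e-05, are given beside these.

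Many members were read near the low end of the scale. A group mean was counted as near the low end when it was below the 25th percentile of all genes in that group, a level of 4.65 to 4.69. By this count 19 of the 61 members, or 31.1%, were near the low end in all 6 groups, against 17.9% of all 19849 genes. Of 83 olfactory receptor genes, which lung cells are not known to use, 52 (62.7%) were. A further 18 members were near the low end in some groups, and 24 in none. Per group, 25 members were near the low end in parental A549, the fewest, and 33 in mesenchymal HCC827, the most. These are ranks of probe set signals, and a signal does not order different genes by their amount of RNA.

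The members near the low end in all 6 groups were spread over several classes. They included CYP2C8, CYP2C18, CYP2C19 and CYP2F1, then CYP3A4 and CYP3A43, CYP4A22, CYP4F8 and CYP4Z1, CYP7A1 and CYP8B1 of bile acid synthesis, and CYP11A1 and CYP19A1 of steroid synthesis. UGT1A1, UGT2A3, UGT2B4, UGT2B17 and UGT3A1 were also among them. At the other end, 17 members were above the median gene in at least 1 group, and 5 of them, CYP20A1, CYP24A1, CYP2R1, CYP2U1 and CYP51A1, in all 6. Over all members, levels varied less between groups than over all genes. The distance from the lowest to the highest group mean was over 1 on the log2 scale for 21 members, or 34.4%, against 45.6% of all genes, and its median was 0.38 against 0.90. More of the members were near the low end in all 6 groups (31.1% against 17.9%), where there is little room to vary. Whether members and other genes of like level differ in this distance was not tested.

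**Figure D1:**
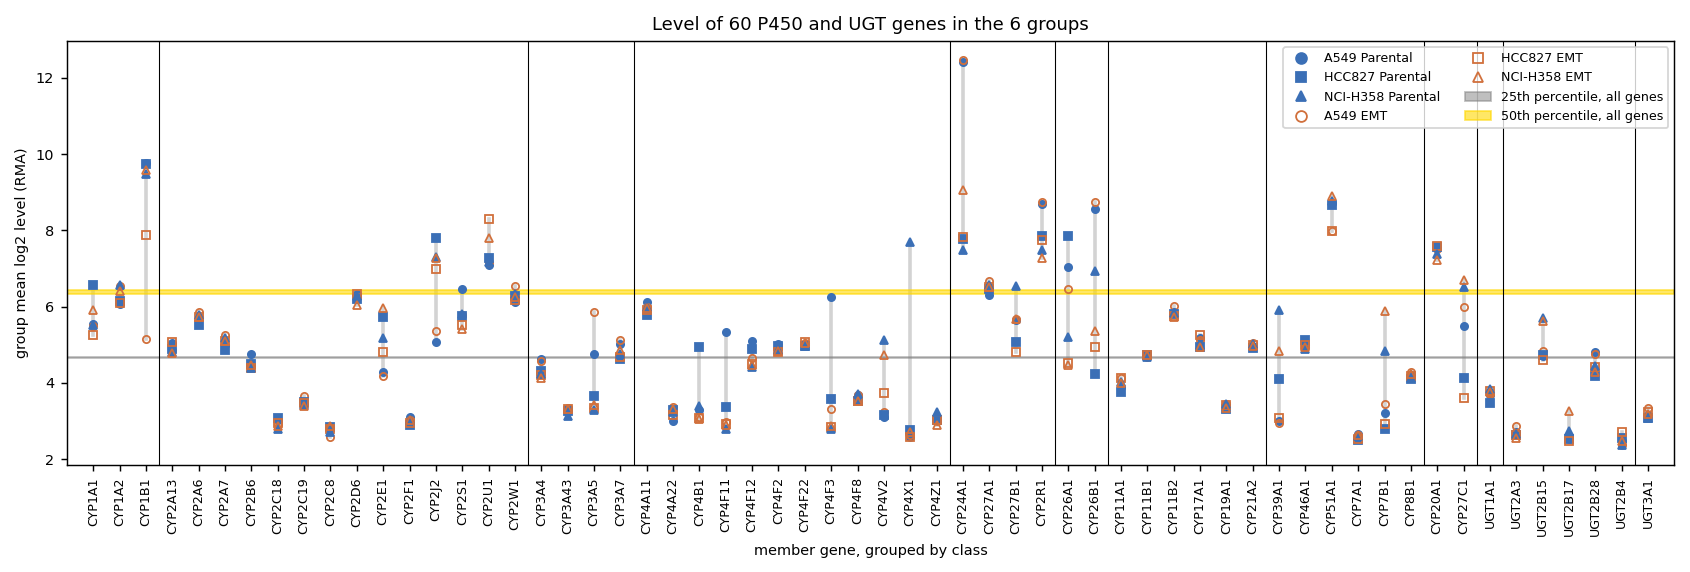
Mean log2 level of 60 of the 61 members in the 6 groups, ordered by class, with the bands showing the 25th and the 50th percentile of all genes over the groups. Each point is the mean of 3 arrays; CYP24A1 in both A549 groups lies highest, and 18 of the members drawn have every point below the 25th percentile.

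Upon EMT few members changed. In A549 cells 4 of 61 members (6.56%) passed the 2-fold call, 1 higher and 3 lower, against 8.02% of all genes (4.15% higher, 3.87% lower). In HCC827 cells 6 members (9.84%) passed, 1 higher and 5 lower, against 11.5% of all genes (4.89% higher, 6.58% lower). In NCI-H358 cells 5 members (8.2%) passed, 2 higher and 3 lower, against 9.38% of all genes (3.96% higher, 5.42% lower). The share of members called was thus near the background in each line. The median change of the members was 0.004, -0.016 and -0.034 on the log2 scale in A549, HCC827 and NCI-H358, and that of all genes was -0.021, 0.005 and 0.015.

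Over the 3 lines 13 members passed in at least 1 line, against 19.4% of all genes and 23.3% of the 16299 genes that were above the low end in at least 1 group, and 0 passed in the same direction in all 3, against 1.67% of all genes. Without a fold limit, 18, 21 and 15 of the 61 members had an unadjusted limma p below 0.05 in A549, HCC827 and NCI-H358. Of all 19849 genes, 9810, 10052 and 9247 had one in the same order. CYP1B1 and CYP39A1 passed in 2 lines each, 2 of 61 members against 5.69% of all genes. Past the study's thresholds in A549 were CYP1B1, CYP4F3 and CYP4F11, where 1.9% of all genes passed (1.17% higher, 0.736% lower). In HCC827 it was CYP26A1, where 2.95% of all genes passed (1.32% higher, 1.63% lower). In NCI-H358 it was CYP4X1, where 2.17% passed (0.811% higher, 1.36% lower). These 5 members fell, and 0 members rose past those thresholds. Of the 11 falls past 2-fold over the 3 lines, 6 ended near the low end of the scale, where the size of a fall is limited by the scale itself. Of the 4 rises, 0 began there.

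**Figure D2:**
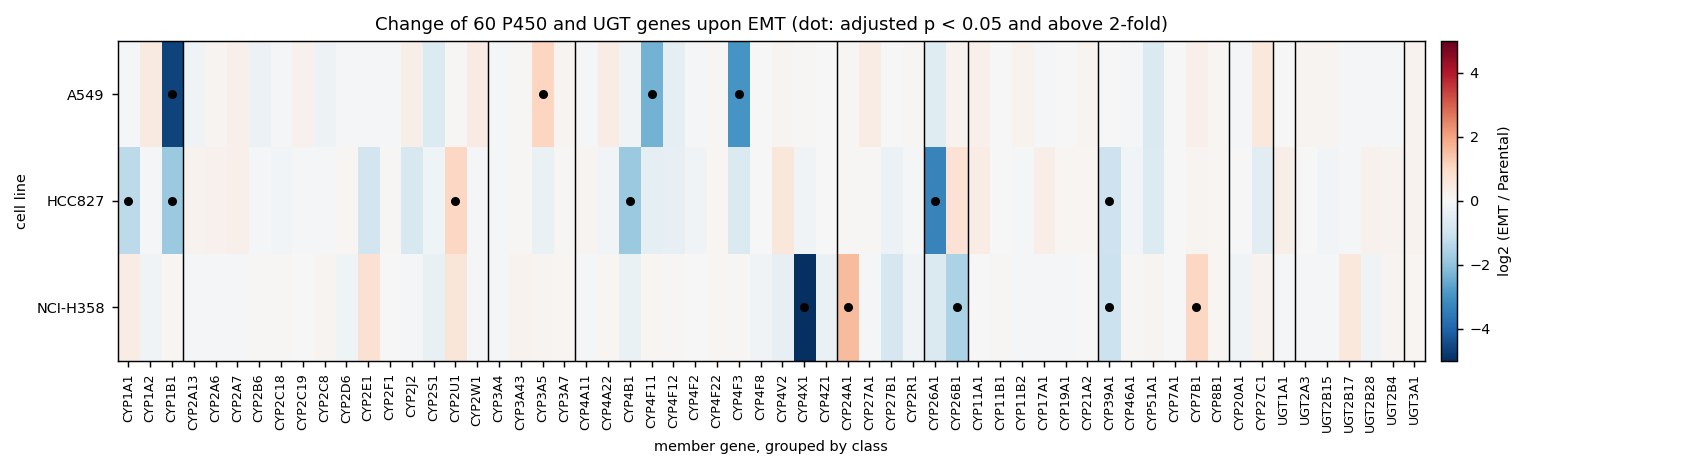
Change of 60 of the 61 members upon EMT, as the log2 level in mesenchymal minus parental cells, with 1 row per line and members ordered by class. Blue is lower and red is higher in mesenchymal cells, and a dot marks a member past the 2-fold call; the 15 dots fall on 13 members.

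The CYP1 enzymes oxidise polycyclic aromatic hydrocarbons and are induced through the aryl hydrocarbon receptor AHR. CYP1B1 fell in A549 and HCC827 and not in NCI-H358, from like levels in the 3 parental lines. In A549 cells its log2 level was 9.75, 9.79 and 9.77 on the parental arrays and 5.36, 4.93 and 5.12 on the mesenchymal arrays. In HCC827 cells it was 9.91, 9.66 and 9.67, then 7.81, 8.03 and 7.83 after EMT. In NCI-H358 cells it was 9.49, 9.49 and 9.46, then 9.62, 9.56 and 9.59. Parental and mesenchymal arrays did not overlap in any of the 3 lines, though in NCI-H358 the gap was small and in the other direction. The fall was -4.63 on the log2 scale (95% interval -4.83 to -4.43) or 24.8-fold in A549, with a limma adjusted p of 5.91e-16. It was -1.85 (-2.06 to -1.65) or 3.61-fold in HCC827, with a limma adjusted p of 4.1e-11. In NCI-H358 the difference was 0.11 (-0.09 to 0.31), with a limma adjusted p of 0.41. As each array read a whole culture, fewer cells with CYP1B1 and less CYP1B1 RNA per cell cannot be told apart, and this holds for every change below.

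CYP1A1, the classical AHR-induced hydrocarbon hydroxylase, fell in HCC827 cells. Its level there was 6.52, 6.43 and 6.74 on the parental arrays and 5.37, 5.25 and 5.13 on the mesenchymal arrays, with no overlap. The fall was -1.31 (-1.53 to -1.10) or 2.48-fold, with a limma adjusted p of 9.93e-09. In A549 cells the means were 5.55 and 5.49 and the arrays overlapped. In NCI-H358 cells the level was 5.61, 5.54 and 5.41 before and 5.76, 6.13 and 5.86 after EMT, a difference of 0.39 (0.18 to 0.61) in the other direction that was under 2-fold. CYP1A2, its neighbour on chromosome 15 and chiefly a liver enzyme, did not pass in any line, with differences of -0.16 to 0.45.

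**Figure D3:**
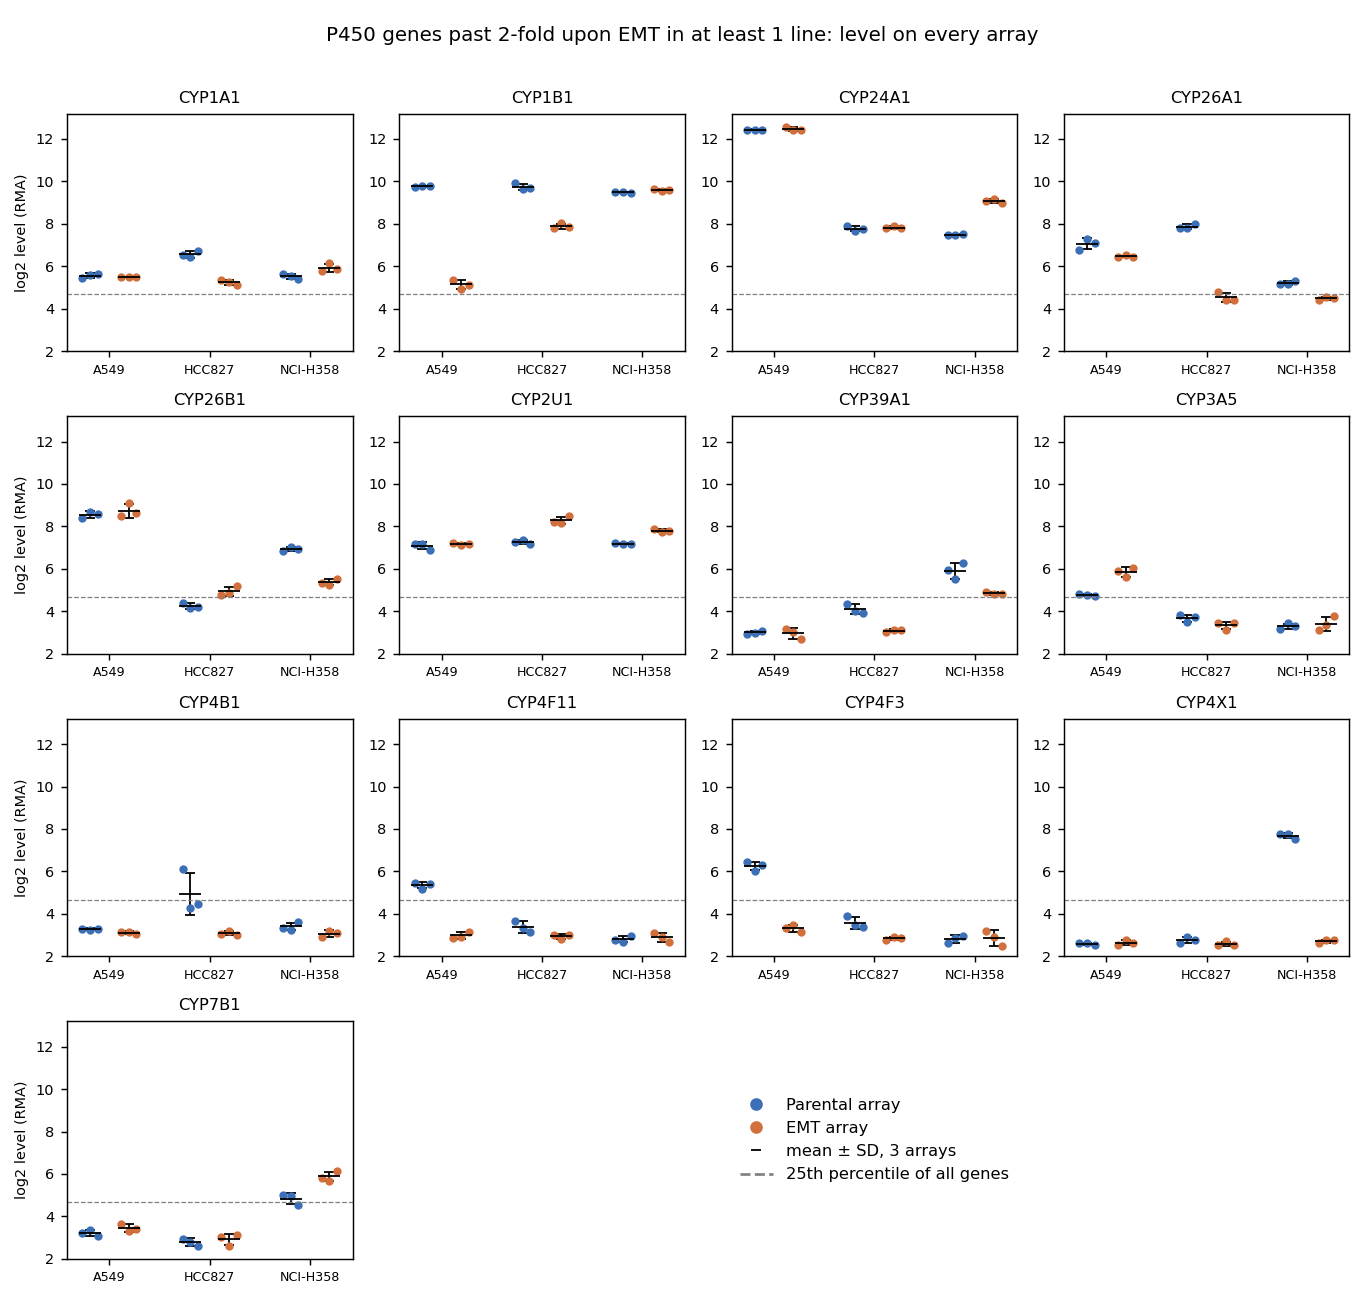
Log2 level on every array of the 13 members that passed the 2-fold call upon EMT in at least 1 line. Points are single arrays, bars are the mean ± SD of 3 arrays, and the dashed line is the 25th percentile of all genes; CYP1B1 drops from 9.77 to 5.14 in A549 and CYP4X1 from 7.69 to 2.70 in NCI-H358.

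The stretch of 250 bases before the start of CYP1A1 is shown because it holds the core of the dioxin response element, GCGTG, to which AHR and its partner ARNT bind. It is given from RefSeq on build GRCh38.p14 at chr15:74725529-74725778, minus strand, 5′ to 3′ along the gene, with the core in capitals.
CYP1A1: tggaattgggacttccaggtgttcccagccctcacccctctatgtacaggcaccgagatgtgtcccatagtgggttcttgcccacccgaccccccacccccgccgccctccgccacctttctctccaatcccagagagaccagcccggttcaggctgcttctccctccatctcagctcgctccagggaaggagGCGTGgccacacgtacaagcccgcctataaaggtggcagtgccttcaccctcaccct
The core begins 57 bases before the start. On either strand it was found in the same window of 8 of the 42 members with an entry (19%) and of 31.9% of 27305 promoters. A match describes these letters and is not evidence of binding. CYP1B1 and CYP24A1 had no entry.

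AHR itself fell in all 3 lines, while its targets AHRR and TIPARP were lower in A549 and HCC827 and higher in NCI-H358. The AHR level was 9.16, 9.04 and 9.35 on parental and 6.36, 6.69 and 6.63 on mesenchymal arrays of A549. It was 11.24, 10.74 and 10.82, then 9.09, 9.26 and 9.01 in HCC827. It was 10.28, 10.29 and 10.58, then 8.50, 8.61 and 8.48 in NCI-H358. The groups did not overlap in any line, and the falls were -2.62, -1.81 and -1.85, with limma adjusted p-values of 3.63e-11, 3.24e-09 and 3.08e-09. AHRR, a repressor of AHR and itself a target of it, fell by 1.48 in A549, with differences of -0.81 in HCC827 and 0.78 in NCI-H358 that were under 2-fold. TIPARP, another AHR target, differed by -0.76, -0.39 and 0.76 in the same order, under 2-fold in each line.

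The change of AHRR in NCI-H358 differed from that in A549 by 2.27 (1.85 to 2.68, limma adjusted p = 6.82e-08), and that of TIPARP by 1.52 (1.25 to 1.78, limma adjusted p = 4.14e-08). The difference for CYP1B1 between the same lines was 4.74 (4.46 to 5.03, limma adjusted p = 7.85e-14). ALDH3A1, an aldehyde dehydrogenase that AHR can induce, fell by 4.72 in A549 and by 1.46 in NCI-H358, and its arrays overlapped in HCC827. NQO1, a quinone reductase listed here among the AHR targets, fell by 2.75 in HCC827, with -0.58 in A549 and -0.82 in NCI-H358. Its mesenchymal arrays were lower without overlap in each line. Whether the fall of AHR has a part in the changes of the CYP1 genes was not tested.

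**Figure D4:**
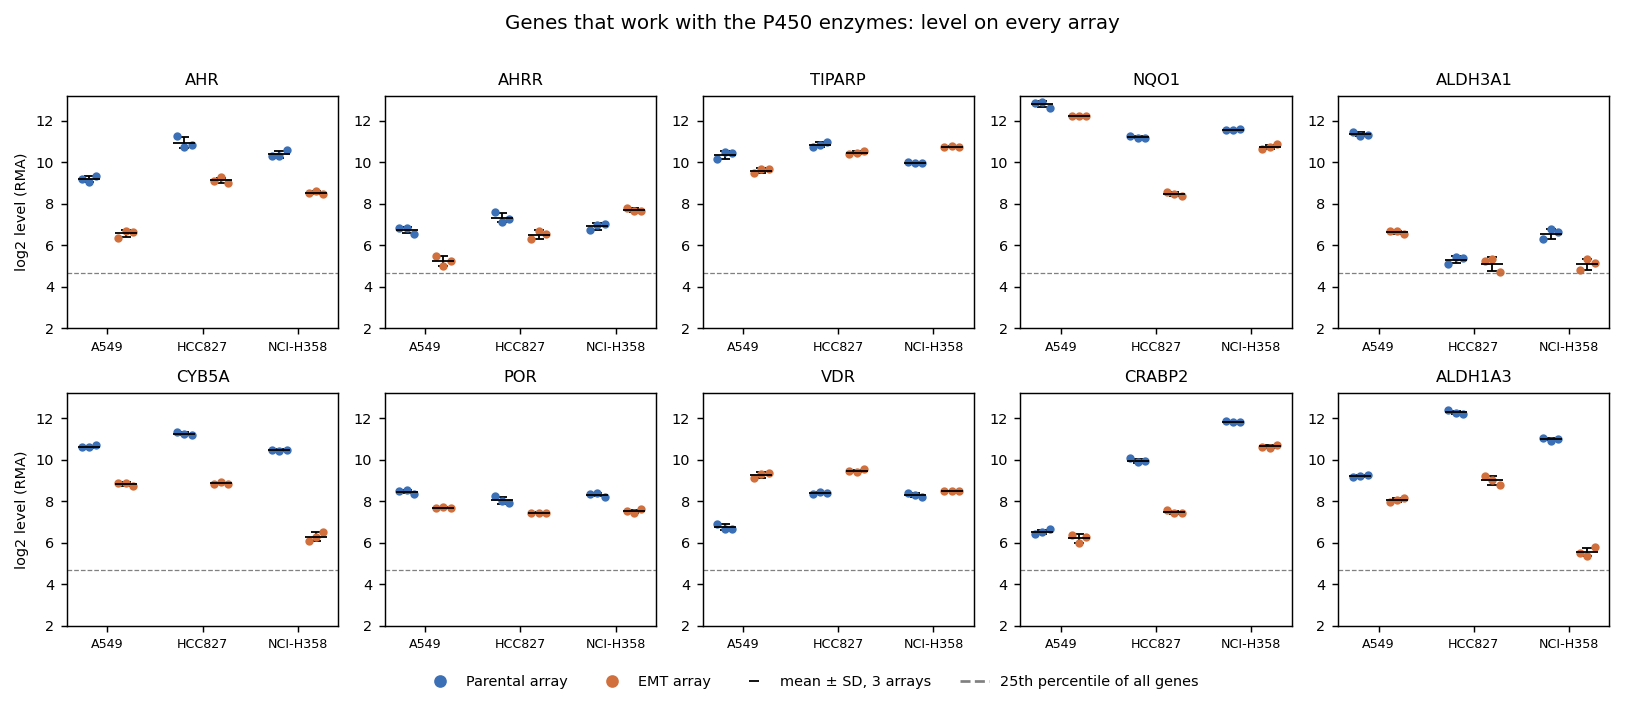
Log2 level on every array of 10 genes that work with the P450 enzymes or share their regulators. Points are single arrays, bars are the mean ± SD of 3 arrays, and the dashed line is the 25th percentile of all genes. AHR, NQO1, CYB5A, POR, CRABP2 and ALDH1A3 are lower on every mesenchymal than on every parental array of the same line.

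CYP26A1 and CYP26B1 break down retinoic acid, the active form of vitamin A, and each changed in a different line. CYP26A1 fell in HCC827, where its level was 7.81, 7.80 and 7.99 on parental and 4.79, 4.4 and 4.41 on mesenchymal arrays. In A549 cells it was 6.77, 7.27 and 7.11, then 6.44, 6.51 and 6.44. In NCI-H358 cells it was 5.16, 5.16 and 5.29, then 4.39, 4.53 and 4.52. Mesenchymal arrays lay below the parental arrays in every line, but the size differed. The mesenchymal means of HCC827 and NCI-H358 were near the low end, where the size of a fall is limited by the scale. The difference was -3.33 (-3.58 to -3.08) or 10.1-fold in HCC827, with a limma adjusted p of 3.57e-13, and -0.59 and -0.72 in A549 and NCI-H358, under 2-fold. CYP26A1 was the member past 1.5-fold in all 3 lines.

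CYP26B1 fell in NCI-H358, from 6.86, 7.03 and 6.94 to 5.35, 5.25 and 5.52. Its fall there was -1.57 (-1.87 to -1.27) or 2.97-fold, with a limma adjusted p of 8.06e-08. In A549 cells it was high in both states, at 8.40, 8.70 and 8.59 and at 8.50, 9.11 and 8.61, and the arrays overlapped. In HCC827 cells it was 4.39, 4.14 and 4.19 before and 4.78, 4.88 and 5.18 after EMT, a difference of 0.71 that was under 2-fold. CYP26A1 was thus lower and CYP26B1 higher on the mesenchymal arrays of HCC827, which began with the highest CYP26A1 and the lowest CYP26B1 level of the parental lines.

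Of 9 genes of retinoid handling, 3 passed in A549 (2 higher, 1 lower), 3 in HCC827 (1 higher, 2 lower) and 3 in NCI-H358 (0 higher, 3 lower), beside 8.02%, 11.5% and 9.38% of all genes. They belong to a list chosen with earlier results of these data known, so these shares are no test against the background. ALDH1A3, which oxidises retinal to retinoic acid, fell in all 3 lines. Its mean went from 9.19 to 8.06 in A549, from 12.27 to 9.01 in HCC827 and from 10.98 to 5.56 in NCI-H358, falls of 2.19-, 9.59- and 42.8-fold with limma adjusted p-values of 1.78e-07, 1.6e-13 and 6.49e-16. CRABP2, a retinoic acid carrier, fell by 2.49 in HCC827 and by 1.18 in NCI-H358, and differed by -0.32 in A549. ALDH1A2, which makes retinoic acid as well, did not pass in any line.

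CYP24A1 inactivates vitamin D, and in A549 it had the highest rank that a member reached in any group. Its level in A549 cells was 12.40, 12.44 and 12.43 on parental and 12.57, 12.40 and 12.43 on mesenchymal arrays, above 98.8% of all genes. In HCC827 cells it was 7.89, 7.66 and 7.77, then 7.79, 7.89 and 7.78. In NCI-H358 cells it was 7.47, 7.47 and 7.54, then 9.09, 9.16 and 8.97. The arrays overlapped in A549 and HCC827 and stood apart in NCI-H358, where CYP24A1 rose by 1.58 (1.43 to 1.74) or 3-fold, with a limma adjusted p of 1.11e-11. In the other 2 lines the differences were 0.04 (-0.11 to 0.19) and 0.05 (-0.11 to 0.20), intervals that exclude a 2-fold change.

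The enzymes that activate vitamin D did not pass in any line. CYP27B1, which makes the active hormone, differed by -0.85 (-1.15 to -0.56) in NCI-H358, from 6.50, 6.68 and 6.42 to 5.50, 5.73 and 5.80, and by 0.01 and -0.29 in A549 and HCC827. CYP2R1, which makes the circulating precursor, differed by 0.05, -0.11 and -0.21. CYP27A1, which also acts on sterols, had group means of 6.30 to 6.68. The vitamin D receptor VDR, by which CYP24A1 is induced, rose by 2.50 in A549 and by 1.07 in HCC827, with limma adjusted p-values of 1.57e-13 and 7.29e-09. In NCI-H358, the line in which CYP24A1 rose, VDR differed by 0.17 (0.00 to 0.35, limma adjusted p = 0.104).

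The CYP4 enzymes oxidise the ends of fatty acids and related lipids, and 4 of the 12 members passed in 1 line each, beside 19.4% of all genes in at least 1 line. CYP4F3, which inactivates leukotriene B4, and CYP4F11, which acts on fatty acids and vitamin K, fell together in A549. The CYP4F3 level there was 6.43, 6.04 and 6.30 on parental and 3.31, 3.48 and 3.14 on mesenchymal arrays. The CYP4F11 level was 5.45, 5.19 and 5.39, then 2.86, 2.91 and 3.16. Neither gene's groups overlapped, and both mesenchymal means were below the 10th percentile of all genes. The falls were -2.95 (-3.30 to -2.59) or 7.72-fold and -2.36 (-2.65 to -2.08) or 5.15-fold, with limma adjusted p-values of 2.47e-10 and 2.42e-10. In HCC827 the means were 3.58 and 2.85 for CYP4F3 and 3.37 and 2.93 for CYP4F11, and in NCI-H358 they were 2.80 to 2.89 for both genes, near the low end throughout.

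CYP4F3 and CYP4F11 belong to a cluster on chromosome 19 in which RefSeq orders the genes CYP4F22, CYP4F8, CYP4F3, CYP4F12, CYP4F2 and CYP4F11. The 4 other genes of the cluster did not pass in A549, with 0.04 for CYP4F22, 0 for CYP4F8, -0.45 for CYP4F12 and -0.04 for CYP4F2. CYP4F8 was near the low end in all 6 groups, where a fall is limited by the scale. CYP4F12 and CYP4F2 are on probe sets with a suffix that marks shared probes. Probe sets of this family can read more than 1 of its near-identical genes, so a change assigned to CYP4F3 or CYP4F11 is uncertain to that extent, although both are on probe sets without the suffix that Affymetrix gives to shared probes. Their rows held different values on the arrays. The 250 bases before the start of each, from RefSeq on GRCh38.p14, are shown because these genes moved together. CYP4F3 is at chr19:15641062-15641311 on the plus strand and CYP4F11 at chr19:15934868-15935117 on the minus strand. Capitals mark the core of the antioxidant response element, TGACNNNGC, here on the strand opposite to the gene.
CYP4F3: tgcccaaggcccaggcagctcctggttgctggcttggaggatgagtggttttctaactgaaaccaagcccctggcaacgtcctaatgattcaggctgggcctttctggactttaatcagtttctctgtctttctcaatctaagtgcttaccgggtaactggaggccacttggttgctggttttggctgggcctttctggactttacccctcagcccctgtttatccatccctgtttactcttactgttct
CYP4F11: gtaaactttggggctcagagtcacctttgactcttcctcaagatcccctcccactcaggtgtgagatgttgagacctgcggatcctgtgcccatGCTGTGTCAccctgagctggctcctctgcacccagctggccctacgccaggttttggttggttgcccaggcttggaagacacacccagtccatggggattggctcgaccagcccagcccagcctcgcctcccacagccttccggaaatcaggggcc
On either strand this core was found in 4 of the 42 members with an entry (9.52%) and in 11% of 27305 promoters. It begins 156 bases before the start of CYP4F11, and neither these letters nor GCGTG occur in the window of CYP4F3.

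CYP4X1, a P450 whose main substrate is not settled, was well above the low end in parental NCI-H358 cells and near the bottom of the scale in the other 5 groups. Its level was 7.74, 7.78 and 7.54 on the parental arrays of NCI-H358 and 2.61, 2.75 and 2.74 on the mesenchymal arrays. On the 12 arrays of A549 and HCC827 it was 2.51 to 2.92. The fall in NCI-H358 was -4.99 (-5.18 to -4.80) or 31.8-fold, with a limma adjusted p of 2.95e-16. Its neighbours in the CYP4 cluster of chromosome 1, CYP4A11, CYP4Z1 and CYP4A22, differed by -0.04, -0.33 and 0.08 in NCI-H358, and CYP4B1 by -0.33. CYP4Z1 and CYP4A22 were near the low end in all 6 groups, and CYP4B1 was so in NCI-H358. A fall of these genes is limited by the scale there. CYP4A11, with group means of 5.77 to 6.11, and CYP4A22 are on probe sets with the suffix for shared probes.

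CYP4B1, a lung P450 that activates plant furan toxins, fell in HCC827 by a value whose size depended on 1 parental array. Its level was 6.09, 4.25 and 4.45 on the parental arrays of HCC827 and 3.03, 3.20 and 3.02 on the mesenchymal arrays. The arrays did not overlap, but the parental arrays spread over 1.84 on the log2 scale, with an SD of 1.01. The difference was -1.84 (-2.49 to -1.20) or 3.59-fold, with a limma adjusted p of 7.13e-05, and it was -1.27 without parental replicate 1. In A549 and NCI-H358 its group means were 3.06 to 3.40. The other 8 CYP4 members were not called in any line and differed by -0.45 to 0.56, the upper end being CYP4V2, a fatty acid hydroxylase, in HCC827.

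Among the CYP2 enzymes, which include drug and fatty acid oxidases, 1 of 15 passed upon EMT in at least 1 line, beside 19.4% of all genes. CYP2U1, a fatty acid hydroxylase, rose in HCC827 from 7.28, 7.35 and 7.17 to 8.21, 8.18 and 8.48. The groups did not overlap, and the rise was 1.02 (0.83 to 1.21) or 2.02-fold, with a limma adjusted p of 4.71e-08. It was 0.97 without parental replicate 3 and 0.92 without mesenchymal replicate 3. In NCI-H358 it differed by 0.62 (0.43 to 0.81) and in A549 by 0.07 (-0.12 to 0.26). The other 14 differed by -0.92 to 0.78, and both ends were CYP2E1, the ethanol-oxidising P450, in HCC827 and NCI-H358. CYP2E1 was at 6.27, 5.57 and 5.33 on parental and 4.48, 4.72 and 5.20 on mesenchymal arrays of HCC827, and at 5.0, 5.39 and 5.19, then 6.01, 5.75 and 6.15 in NCI-H358. CYP2S1, an AHR-responsive P450 of epithelia, differed by -0.68 (-0.93 to -0.42), -0.22 and -0.38 in A549, HCC827 and NCI-H358. CYP2F1 and CYP2A13, known from the airway, had group means of 2.90 to 3.11 and 4.79 to 5.07.

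Of the 4 CYP3A drug-metabolising enzymes, CYP3A5 passed in A549. Its level was 4.81, 4.76 and 4.71 on parental and 5.88, 5.62 and 6.06 on mesenchymal arrays, with no overlap. The rise was 1.09 (0.78 to 1.41) or 2.13-fold, with a limma adjusted p of 1.12e-05, and 0.99 without mesenchymal replicate 3. In HCC827 and NCI-H358 its group means were 3.29 to 3.66, near the low end. CYP3A4, CYP3A7 and CYP3A43 differed by -0.11 to 0.19 over the 3 lines.

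Among 6 sterol, oxysterol and bile acid enzymes, CYP39A1 and CYP7B1 passed, beside 19.4% of all genes in at least 1 line. CYP39A1, an oxysterol hydroxylase, was at 4.36, 4.01 and 3.92 on parental and 3.02, 3.1 and 3.12 on mesenchymal arrays of HCC827. In NCI-H358 it was at 5.95, 5.52 and 6.25, then 4.90, 4.80 and 4.82. In neither line did the groups overlap, and the falls were -1.02 (-1.35 to -0.69) and -1.07 (-1.39 to -0.74), with limma adjusted p-values of 2.97e-05 and 2.27e-05. Both lie close to the 2-fold line. The call was lost in HCC827 without parental replicate 1 (-0.89) or mesenchymal replicate 1 (-0.99), and in NCI-H358 without parental replicate 3 (-0.89). In HCC827 both group means, 4.10 and 3.08, were near the low end. In A549 the CYP39A1 means were 3.00 and 2.96, near the low end.

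CYP7B1, another oxysterol hydroxylase, rose in NCI-H358 from 5.0, 4.97 and 4.55 to 5.80, 5.69 and 6.14. The rise was 1.04 (0.71 to 1.37), with a limma adjusted p of 3.2e-05, and it was 0.89 without parental replicate 3 and 0.91 without mesenchymal replicate 3. CYP51A1, the demethylase of cholesterol synthesis, was at 8.74, 8.59 and 8.82 on parental and 7.81, 8.05 and 8.11 on mesenchymal arrays of A549. In HCC827 it was at 8.56, 8.72 and 8.71, then 7.98, 7.94 and 8.03. The differences of -0.72 (-0.91 to -0.53) and -0.68 (-0.87 to -0.49) were under 2-fold although the groups did not overlap, with limma adjusted p-values of 4.09e-06 and 6.32e-06. In NCI-H358 its arrays overlapped, with a difference of 0.12 (-0.07 to 0.31).

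The remaining classes had 0 called members upon EMT. The 6 steroid hormone enzymes, CYP11A1, CYP11B1, CYP11B2, CYP17A1, CYP19A1 and CYP21A2, differed by -0.11 to 0.38, with group means of 3.32 to 6.03. CYP20A1, an orphan P450, was above the median gene in every group. CYP27C1, a retinoid desaturase, differed by 0.52, -0.52 and 0.18 in A549, HCC827 and NCI-H358.

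The 7 UGT genes did not pass the 2-fold call in any of the 9 comparisons, as was so for 61.3% of all genes. Of them 5 were near the low end in all 6 groups, UGT2B28 in 4 and UGT2B15 in 1. Upon EMT they differed by -0.17 to 0.53. The upper end was UGT2B17, a steroid-conjugating enzyme, at 2.81, 2.70 and 2.69 on parental and 3.09, 2.95 and 3.75 on mesenchymal arrays of NCI-H358, so that 1 mesenchymal array stood above the other 2. UGT2B15, its near relative, had its highest levels in NCI-H358, at 5.98, 5.64 and 5.48 before and 5.91, 5.42 and 5.54 after EMT. Probe sets for these relatives carry the shared-probe suffix for UGT2A3, UGT2B15 and UGT2B28, and which of them a signal came from was not tested. UGT1A1, the bilirubin-conjugating enzyme and the UGT1A gene listed here, had group means of 3.48 to 3.84. UGDH, which makes the glucuronic acid donor, had percentiles of 95 to 99.1 among all genes and differed by -0.33, -0.43 and 0.08.

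Differences between the parental lines were more frequent than changes upon EMT, among the members as among all genes. Between HCC827 and A549 11 members (18%) passed, 5 higher and 6 lower in HCC827, against 18.8% of all genes (10.2% higher, 8.62% lower). Between NCI-H358 and A549 13 members (21.3%) passed, 6 higher and 7 lower in NCI-H358, against 20.4% (10.7% higher, 9.79% lower). Between NCI-H358 and HCC827 10 members (16.4%) passed, 7 higher and 3 lower in NCI-H358, against 15.2% (7.27% higher, 7.91% lower). In all, 17 members passed in at least 1 pair, against 30.7% of all genes. Folds between parental lines are ratios of signals, and where the lower mean is near the low end their size is limited by the scale. CYP24A1 was higher in parental A549 than in HCC827 and NCI-H358 by 25.2- and 30.6-fold. CYP26B1 was higher in A549 than in HCC827, where its mean of 4.24 was near the low end, by 20.1-fold and than in NCI-H358 by 3.07-fold. CYP4F3 was higher in A549 than in the other 2 lines by 6.39- and 11-fold, and CYP4F11 by 3.92- and 5.83-fold, with means of 2.80 to 3.58 in those lines, near the low end.

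CYP4X1 was higher in parental NCI-H358 cells, 34.2-fold above A549 and 30.4-fold above HCC827, where its means of 2.59 and 2.76 were near the bottom of the scale. CYP39A1 was 7.51-fold above A549 and 3.5-fold above HCC827, where its means of 3.00 and 4.10 were near the low end too. CYP27C1 was 5.26-fold higher and CYP26B1 6.53-fold higher in NCI-H358 than in HCC827, where both were near the low end, and CYP26A1 was 6.33-fold lower. CYP4V2 had parental means of 3.1, 3.17 and 5.13 in A549, HCC827 and NCI-H358, and CYP7B1 of 3.21, 2.79 and 4.84. CYP2J2, an epoxygenase of arachidonic acid, was low in A549, with a mean of 5.08 against 7.79 in HCC827 and 7.31 in NCI-H358. The CYP2J2 gap was 6.54-fold to HCC827 and 4.7-fold to NCI-H358, and CYP2J2 was under 2-fold in its EMT change in each line, with 0.29, -0.82 and -0.04.

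The EMT change itself differed between lines for 14 members, against 21.5% of all genes, when the difference of the changes was tested with limma at an adjusted p below 0.05 and a size over 1 on the log2 scale. For HCC827 against A549 these were 9 members (14.8%), against 13.4% of all genes, of which 6.29% were more positive and 7.06% more negative in HCC827. For NCI-H358 against A549 they were 7 members (11.5%), against 12.7% of all genes, 6.01% more positive and 6.74% more negative. For NCI-H358 against HCC827 they were 8 members (13.1%), against 11% of all genes, 5.46% more positive and 5.53% more negative. The widest gaps were those of CYP4X1, -5.03 (-5.30 to -4.76) for NCI-H358 against A549, and of CYP1B1, 4.74 between the same lines. CYP4X1 was near the low end in A549 and HCC827 before EMT, as CYP4F3 and CYP4F11 were in HCC827 and NCI-H358. The size of a fall is limited by the scale there, and the differences of these genes depend on it. A parental group enters both a line's EMT change and its parental comparison, so that these are not independent.

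**Figure D5:**
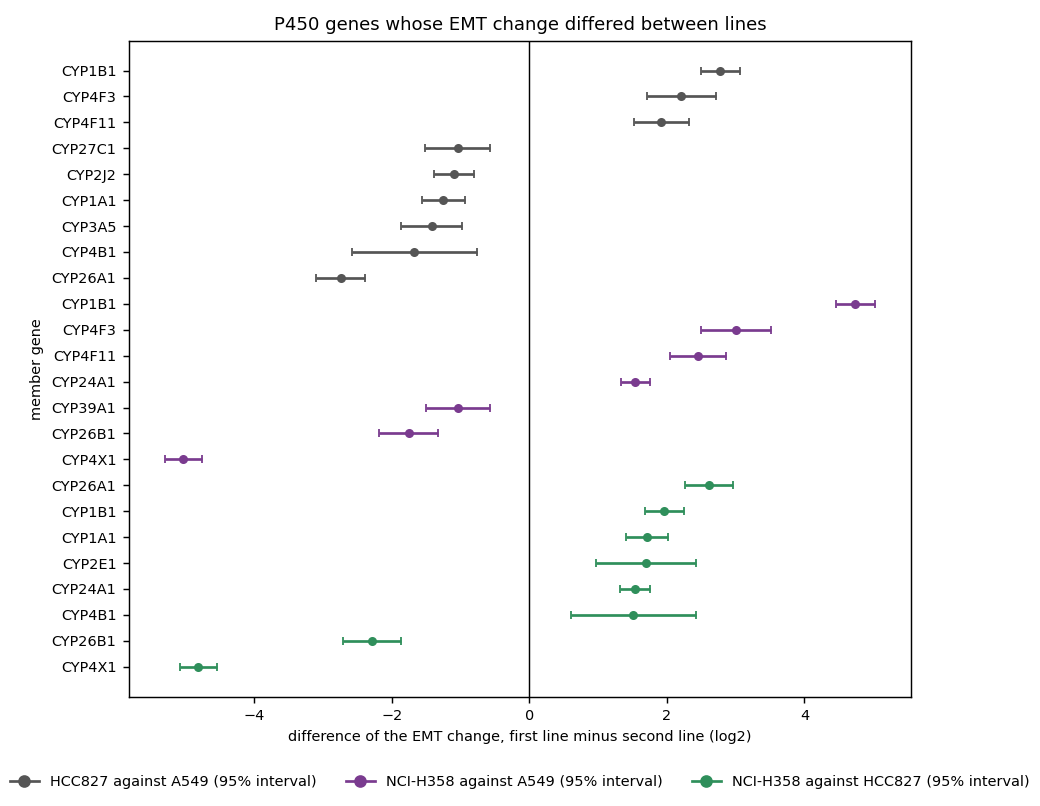
Difference of the EMT change between 2 lines, first line minus second line on the log2 scale, for each member and pair that passed. Points are limma estimates and bars 95% intervals; CYP1B1 lies above 0 and CYP4X1 below 0 in each pair shown for them.

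The partners of the P450 enzymes were mostly well above the low end. POR, the reductase that supplies microsomal P450s with electrons, was at 8.50, 8.52 and 8.36 on parental and 7.68, 7.73 and 7.65 on mesenchymal arrays of A549. In HCC827 it was at 8.23, 8.0 and 7.91, then 7.44, 7.44 and 7.45, and in NCI-H358 at 8.35, 8.37 and 8.22, then 7.52, 7.45 and 7.60. The mesenchymal arrays were lower without overlap in each line, by -0.77, -0.60 and -0.79, all under 2-fold, with limma adjusted p-values of 4.44e-07, 5.91e-06 and 2.81e-07.

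CYB5A, the microsomal cytochrome b5 that can pass an electron to P450s, fell in all 3 lines. Its mean went from 10.62 to 8.82 in A549, from 11.25 to 8.86 in HCC827 and from 10.46 to 6.28 in NCI-H358. The falls were 3.5-, 5.23- and 18.1-fold, with limma adjusted p-values of 2.4e-11, 5.01e-13 and 1.11e-15. In NCI-H358 the change was more negative than in A549 by 2.37 (limma adjusted p = 9.82e-11) and than in HCC827 by 1.79 (limma adjusted p = 5.47e-09). Of the 9 redox partners listed, A549 and HCC827 had 2 past the 2-fold call each and NCI-H358 had 1, each time as falls. Of all genes, 3.87%, 6.58% and 5.42% fell in A549, HCC827 and NCI-H358.

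Over the whole list of 59 partner genes, 12 passed in A549 (6 higher, 6 lower), 11 in HCC827 (4 higher, 7 lower) and 6 in NCI-H358 (0 higher, 6 lower). These are 20.3%, 18.6% and 10.2% of the list, beside 8.02%, 11.5% and 9.38% of all genes. The list was chosen with earlier results of these data known, so its shares are no test against the background. Of 20 receptors and their partners 5, 2 and 1 passed in A549, HCC827 and NCI-H358, AHR among them each time. Of 10 genes of haem synthesis and breakdown, the haem-degrading HMOX1 rose in A549 and HCC827 by 1.09 and 1.04, and 0 of the others passed. Among 5 genes of glucuronic acid supply and cleavage, the nucleotide-sugar transporters SLC35D1 and SLC35D2 moved apart in HCC827, by 1.61 and -1.48. UGT8, a galactosyltransferase of the UGT family outside the rule, had a mean of 2.69 in parental A549 and of 9.04 and 9.57 in parental HCC827 and NCI-H358, and did not pass upon EMT.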

How the data were processed

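The authors hybridised total RNA to Affymetrix U133 Plus 2.0 arrays, normalised them by RMA, which corrects background and equalises the signal distribution between arrays, and deposited log2 values. Each of the 19849 genes has a single probe set, chosen by a rule not given in the sources used here. Groups were taken from the sample labels. limma 3.58.1 in R 4.3.3 (lmFit, eBayes) was run on all 18 arrays in 1 fit of 6 groups without covariates, with p-values adjusted by Benjamini-Hochberg over all genes. With 3 arrays in each group the precision is limited, and, as the study calls its array replicates separate biological samples made at 1 time, p-values leave out the spread between occasions. Replicate numbers are only names and pair no samples. An exact permutation test of 3 against 3 arrays cannot go below a two-sided p of 0.1 and was not used. Differences of changes were contrasts in the same fit.

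The members, their classes, the partner list and the markers were chosen with earlier results of these data known. Members were named when past the study's thresholds in a line or past 2-fold in all 3 lines, when among the 5 largest called differences of a pair of lines in EMT change or parental level, or from a fixed list of 12 genes. Partner genes were named when past the study's thresholds or fixed. Other members and partners were named to make the counts complete, after their values were seen. The fit was tested on simulated data. Alternatives tried were an intensity trend, a fit per line, median-centred arrays, leaving out dim probe sets and Student's t-test. Other thresholds and low-end limits were tried too, and each array was left out in turn. For its arrays the study names limma, and the t-test where nothing else is specified. Promoter sequences with their positions, and gene order, are from RefSeq GRCh38.p14. The table itself names no build and gave no positions. Protein sequences were not analysed here. Values of 1 member and 1 partner gene are not reported here, though both enter the counts.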

Additional observations from a re-analysis of the deposited data

Results flagged for a closer look

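The EMT change of 14 members differed between lines by the limma test of the difference itself. Each value here is the change in the line named first minus that in the line named second, on the log2 scale. Where a gene was near the low end before EMT, a fall is limited by the scale, and the difference depends on it. Among others this holds for CYP4X1 in A549 and HCC827, and for CYP4F3 and CYP4F11 in HCC827 and NCI-H358. It also holds for CYP4B1 in A549 and NCI-H358 and for CYP39A1 in A549. CYP26A1 reached the low end after EMT in HCC827 and NCI-H358.

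For HCC827 against A549 the difference was 2.78 for CYP1B1, 2.21 for CYP4F3 and 1.92 for CYP4F11, which passed the 2-fold call as falls in A549. It was -2.74 for CYP26A1, -1.67 for CYP4B1 and -1.25 for CYP1A1, which passed as falls in HCC827 and not in A549, and -1.42 for CYP3A5, which rose in A549. For CYP2J2 it was -1.10 and for CYP27C1 -1.04, although neither passed 2-fold upon EMT in any line. The limma adjusted p-values of these 9 lay between 4.57e-11 and 0.00449.

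For NCI-H358 against A549 the difference was 4.74 for CYP1B1, 3.01 for CYP4F3, 2.46 for CYP4F11 and 1.54 for CYP24A1. It was -5.03 for CYP4X1, -1.75 for CYP26B1 and -1.03 for CYP39A1. The limma adjusted p-values of these 7 lay between 2.19e-14 and 0.000996.

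For NCI-H358 against HCC827 the difference was 2.61 for CYP26A1, 1.96 for CYP1B1, 1.71 for CYP1A1, 1.54 for CYP24A1 and 1.51 for CYP4B1. It was 1.70 for CYP2E1, which was lower after EMT in HCC827 and higher in NCI-H358, both under 2-fold, -2.28 for CYP26B1 and -4.81 for CYP4X1. The limma adjusted p-values of these 8 lay between 6.72e-14 and 0.00999.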

How the results depend on the processing

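The 73 called results on single members were each checked under the alternatives that applied, with each array left out included. Of these checks, 1550 kept the direction and side of the threshold, 28 kept the direction and dropped below the call, and 0 reversed. Counts stayed within 1.5 times the reported count in 99 cases and left it in 27. The former include those with an intensity trend, a fit per line and dim probe sets left out. The study's methods name limma for the arrays and Student's t-test where nothing else is specified. By that t-test with Benjamini-Hochberg adjustment the members past the study's thresholds were 0, 0 and 0 in A549, HCC827 and NCI-H358. At an unadjusted p below 0.05 and the same fold they were 3, 1 and 1. The t-test takes a gene's spread from the arrays of the line alone, so an adjusted p under 1e-05 is hard to reach. The members past 2-fold by that test were 4, 5 and 5, and CYP4B1 in HCC827 lost its call (adjusted p = 0.0854). With a fold threshold of 2 in place of the study's 5 and its adjusted p in limma, members past it were 4 in HCC827 and 3 in NCI-H358, and with 10 they were 1 in A549. At 1.5-fold the members called upon EMT were 7, 11 and 9, with 1 (CYP26A1) in all 3 lines, the members whose change differed were 14 for NCI-H358 against A549 and 14 against HCC827, and the partner genes called were 20 in HCC827 and 23 in NCI-H358. At 4-fold the members called were 1 in HCC827 and 1 in NCI-H358, those whose change differed 3, 4 and 3, those between parental lines 4, 7 and 5, and the partner genes 4, 5 and 2. With the low end at the 10th or the 50th percentile, 12 or 44 members were near it in all 6 groups. Centring the arrays took CYP39A1 in HCC827 to -0.96.

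Leaving out 1 array gave 2 to 3, 1 to 1 and 1 to 1 members past the study's thresholds and 3 to 4, 5 to 6 and 3 to 5 past 2-fold in A549, HCC827 and NCI-H358, with 0 to 0 in all 3 lines. Without NCI-H358.Parental replicate 3 the count in NCI-H358 was 3, as CYP39A1 (-0.89) and CYP7B1 (0.89) lost the call. Differing changes numbered 8 to 11, 6 to 8 and 7 to 9, parental differences 10 to 11, 12 to 16 and 9 to 10, partner genes 11 to 12, 10 to 13 and 6 to 7, and members near the low end 18 to 20. CYP2U1 in HCC827 was 0.97 without HCC827.Parental replicate 3 and 0.92 without HCC827.EMT replicate 3. CYP39A1 in HCC827 was -0.89 without HCC827.Parental replicate 1 and -0.99 without HCC827.EMT replicate 1. Differences of the EMT change that dropped below the call were those of CYP4B1 for NCI-H358 against HCC827 (0.93) and CYP27C1 for HCC827 against A549 (-0.91) without HCC827.Parental replicate 1, CYP27C1 without HCC827.EMT replicate 1 (-0.87) or A549.Parental replicate 3 (-1.0), CYP2J2 for HCC827 against A549 without HCC827.Parental replicate 3 (-0.99), and CYP39A1 for NCI-H358 against A549 without A549.EMT replicate 1 (-0.92), A549.EMT replicate 2 (-1.0) or NCI-H358.Parental replicate 3 (-0.86). The cause of these shifts was not tested. Signal near the low end cannot separate a small amount of RNA from none, so that an unchanged low level does not show that a gene is silent.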

Other observations

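The table also holds rows for CYP pseudogenes and for an antisense RNA that lie outside the rule, and they were listed after the members' values were seen. CYP1B1-AS1, transcribed opposite to CYP1B1, had group means of 2.95 to 3.61, near the low end in all 6 groups. In A549, where CYP1B1 fell by 4.63, it differed by -0.14 from a parental mean of 3.09. The size of a fall is limited by the scale there. The pseudogenes CYP4F30P and CYP4Z2P, relatives of the CYP4F and CYP4Z genes, had group means of 2.82 to 3.05 and 2.87 to 3.11, and CYP2A7P1 and CYP2B7P1 of 4.41 to 4.66 and 4.67 to 4.92. None of these 5 rows passed the 2-fold call with limma in any of the 3 EMT comparisons. For 1 of them, CYP1B1-AS1 in NCI-H358, the limma adjusted p was 0.047, with a difference of 0.28 on the log2 scale, under 2-fold, and arrays that overlapped.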
